A study of Macaca fascicularis with 12 samples.

Results

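The genes described here carry the second signal of T cell activation and the brakes on it: the ligands CD80 and CD86, the receptors CD28, CTLA4, ICOS and PDCD1 (PD-1), the PD-1 ligand CD274 (PD-L1), and the checkpoint molecules HAVCR2 (TIM-3) and VSIR (VISTA). A member was any array probe whose single gene symbol in the platform annotation was one of these 9 genes. Of the 9 genes, 8 had such a probe, among 18160 named genes in all. CD28 had 2 probes, so 9 of the 53877 tested probes were members. PDCD1 is not analysed here.

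The material was the left iliac artery, taken from 12 female cynomolgous monkeys older than 20 years, 1 artery and 1 array per animal. All of them had been eating a high fat diet for 8 years and had lived without ovaries for 4 years. Animals on another diet or with ovaries thus form no group here, and no other treatment is listed for the 12 monkeys. The submitters grouped the arteries by measured plaque. The small group had 4 arteries of up to 0.113 mm2, 2 of them listed at 0. Areas ran from 0.30 to 0.542 mm2 in the 5 medium arteries, and the 3 large ones had from 0.61 to 1.003 mm2. Each sample is a whole arterial biopsy, so a lower level can come from fewer cells of a type or from less RNA per cell, and these cannot be told apart.

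A T cell needs a signal from its antigen receptor and a further one from CD28, which binds CD80 and CD86 on antigen-presenting cells such as dendritic cells and macrophages. CTLA4 binds the same ligands more tightly and restrains the response, ICOS is an inducible relative of CD28, and PD-1 inhibits T cells when bound by PD-L1. TIM-3 is found on exhausted T cells and also on macrophages and dendritic cells, and VISTA is an inhibitory B7 relative of myeloid and T cells. Macrophages and T cells are the main leukocytes of atherosclerotic plaque.

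Values are probe intensities that the authors scaled to a median near 1 on every array, with between 53832 and 53867 probes measured per array. Differences are in log2 units, where 1 unit is a doubling, and ± gives the fit's standard error (SE). They were tested with limma across all probes and called at a Benjamini-Hochberg adjusted p under 0.05. The markers of the labelled tissue were bright, with a mean log2 intensity in the small group of 8.78 for ACTA2, smooth muscle actin, and 9.25 for MYH11, smooth muscle myosin. The human probes can bind monkey transcripts unequally, so levels were tested between animals and not between genes. Where a probe is called bright or dim, this describes its signal and not the amount of transcript. The labels name no batch, but 2 animals, small replicate 4 and medium replicate 5, carry distant identity numbers. For the members and the other pathway genes, calls against small plaque that were lost without both of them are given that way too. No such result is given for the cell type markers or for dimmer probes of genes outside the members.

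In arteries with medium plaque CD86, CD80 and HAVCR2 rose against small plaque, and in those with large plaque CD86 and HAVCR2 did. No probe for CD28, CTLA4, ICOS, CD274 or VSIR passed in either comparison. This made 3 of 9 member probes called higher in medium against small, where 1.97% of all tested probes were, and 2 of 9 in large against small, where 0.948% were. None was called lower, against 1.17% and 0.197% of all probes. The median difference of the 9 probes was 0.42 in medium and 0.21 in large, beside -0.086 and -0.099 over all probes. Both comparisons use the same 4 small arteries. Large against medium gave no call among the 9 probes or among all 53877, so percent called was 0, while 2713 probes (5.04%) were under an unadjusted p of 0.05, VSIR being the 1 member among them.

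**Figure D1:**
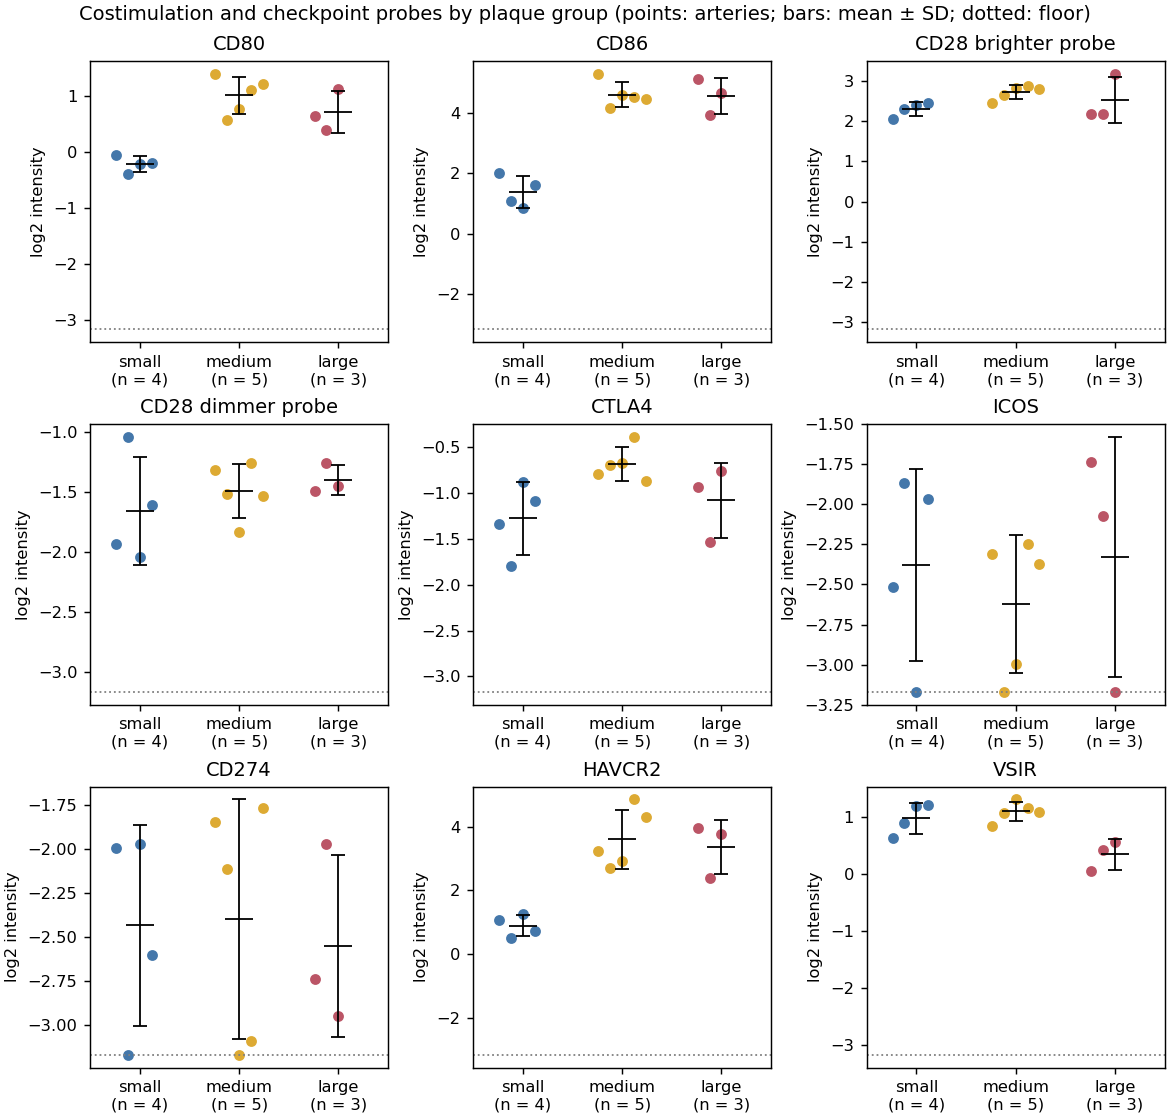
Log2 intensity (vertical axis) of each member probe in 4 small, 5 medium and 3 large arteries, grouped by plaque, with a point for each artery, bars for the mean ± SD and a dotted line at the floor of 0.111 in linear intensity. CD86, CD80 and HAVCR2 stand apart from the small group in all 8 arteries with medium or large plaque, VSIR is lowest in the large group, and ICOS and CD274 reach the floor.

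CD86, the ligand that antigen-presenting cells carry at rest and raise on activation, had intensities of 3.98, 2.10, 1.79 and 3.05 in the small arteries. The medium arteries had 38.95, 17.95, 23.96, 22.76 and 21.73, and the large ones 34.79, 15.16 and 24.88. The lowest artery with medium or large plaque, large replicate 2, was thus well above the highest small one, small replicate 1. CD86 rose by 3.22 ± 0.31 (SE, n = 5 and 4; 9.30-fold; limma adjusted p 0.000387) in medium and by 3.18 ± 0.35 (SE, n = 3 and 4; 9.07-fold; limma adjusted p 0.00169) in large. Groups that do not overlap, with the higher values in the larger plaque, occurred for 3.94% of all probes in medium against small and for 5.99% in large against small. Between large and medium CD86 differed by -0.037, with a 95% interval from -0.77 to 0.70, and the direction turned in some alternatives. Its calls against small held under all 25 alternatives tried in each comparison.

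CD80, the other CD28 and CTLA4 ligand, which appears mainly after activation, lay close together in the small arteries at 0.959, 0.756, 0.864 and 0.869. It reached 2.62, 1.49, 1.70, 2.16 and 2.30 in medium and 1.56, 1.31 and 2.18 in large. Every artery with medium or large plaque exceeded every small one, by a smaller margin than for CD86. CD80 rose by 1.23 ± 0.21 (SE; 2.34-fold; limma adjusted p 0.009) in medium. In large the difference was 0.94 ± 0.24 and did not pass (limma adjusted p 0.077). It did pass when only probes brighter than the median were tested (limma adjusted p 0.0339). The small arteries lay below the median of their arrays, at percentiles 43.3 to 48.9. CD80 thus met that filter only through the larger plaques, so this pass is no support for a rise in large. Large and medium differed by -0.29, with a 95% interval from -0.78 to 0.20, so a fall in large was not shown. Without both animals of distant identity numbers the medium rise was 1.19 with an adjusted p of 0.0534.

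HAVCR2, the checkpoint receptor TIM-3, was 2.07, 1.42, 2.38 and 1.65 in the small arteries. It spread widely above them, at 9.46, 6.55, 7.59, 28.99 and 19.6 in medium and 15.43, 5.21 and 13.55 in large. The groups did not overlap with small, but the SD in log2 units was 0.93 in medium and 0.86 in large against 0.33 in small, with medium replicate 4 highest and large replicate 2 lowest of the 8. HAVCR2 rose by 2.72 ± 0.46 (SE; 6.60-fold; limma adjusted p 0.00873) in medium and by 2.48 ± 0.52 (SE; 5.58-fold; limma adjusted p 0.0439) in large. The medium call was lost without both animals of distant identity numbers (2.50, adjusted p 0.0534). The large call was lost under 11 of 25 alternatives, among them without both these animals (2.43, adjusted p 0.0922). Among the animals left out in turn it was lost without small replicate 2, 3 or 4, medium replicate 3 or 5, or large replicate 1 or 3, with adjusted p-values from 0.0509 to 0.202 and differences from 2.19 to 2.60.

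**Figure D2:**
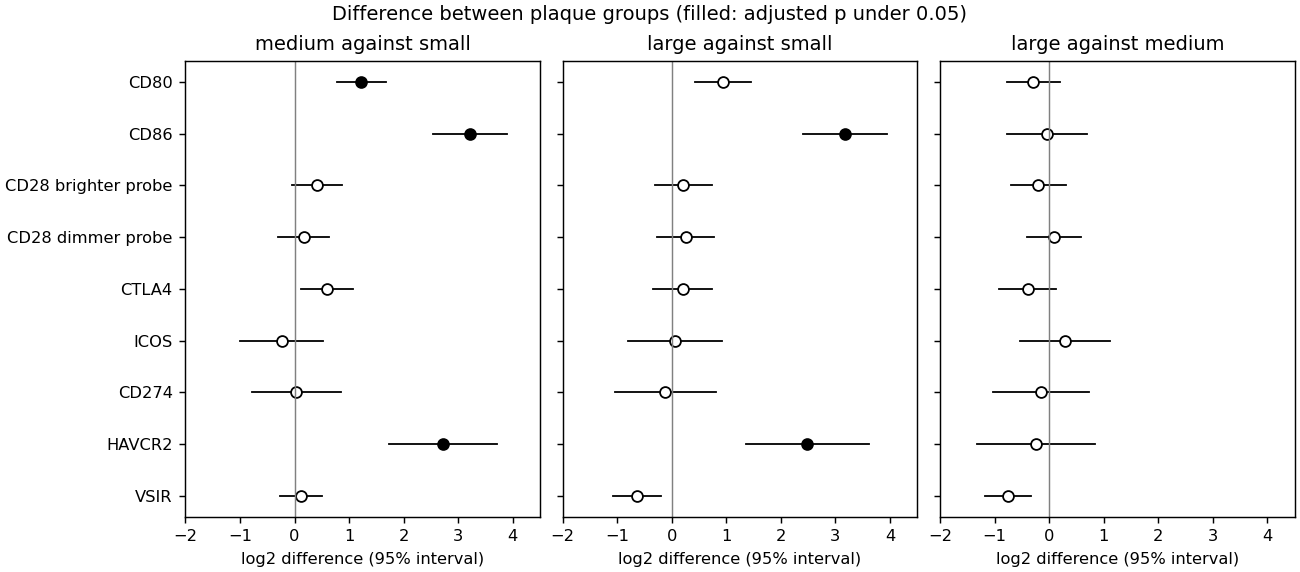
Log2 difference between plaque groups (horizontal axis) for each member probe, with 95% intervals from limma; filled points have an adjusted p under 0.05. CD86 and HAVCR2 lie between 2.48 and 3.22 against small, CD80 is filled in medium against small alone, and no point is filled in large against medium.

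The T cell receptors of the family gave no call. CD28 was read by a brighter probe, on an expressed sequence tag, and a dimmer one on the RefSeq transcript. The brighter probe ran from 4.17 to 5.44 in small, from 5.44 to 7.30 in medium and from 4.54 to 9.04 in large, where large replicate 3 alone was above 4.57. Its difference was 0.42 ± 0.21 (SE; limma adjusted p 0.33) in medium and 0.21 ± 0.24 (SE; limma adjusted p 0.717) in large. The dimmer probe stayed between 0.243 and 0.487 in all 12 arteries, with overlapping groups. The interval for large against small ran from -0.32 to 0.74 on the brighter probe. For that probe's signal this excludes a rise of the size seen for CD86. The 2 probes had a Pearson r of 0.068 with each other over 12 arteries, so the CD28 transcript itself is not settled.

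CTLA4, the inhibitory receptor for CD80 and CD86, was dim but above the floor on every array. It measured 0.397, 0.287, 0.542 and 0.470 in small, 0.578, 0.620, 0.626, 0.766 and 0.548 in medium, and 0.523, 0.344 and 0.592 in large. The medium arteries lay just above all small ones, whereas the large arteries overlapped both. The difference in medium was 0.59 ± 0.22 (SE; 1.51-fold; unadjusted p 0.019, limma adjusted p 0.175), and 18.3% of all probes were under an unadjusted p of 0.05 in that comparison. In large it was 0.20 ± 0.25 (SE; limma adjusted p 0.746).

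ICOS and CD274 could not be followed. ICOS, the inducible costimulator, read between -0.0203 and 0.300 with 3 of 12 arrays at the floor, 1 in each group, and CD274 between 0.0328 and 0.294 with 2 at the floor. Their mean levels stood at the 11.3th and 12th percentile of all tested probes. For ICOS the differences from small were -0.24 ± 0.35 (SE) in medium and 0.054 ± 0.40 (SE) in large, and for CD274 0.035 ± 0.37 and -0.12 ± 0.42. Values this low do not show whether either transcript was present, and the signs turned in several alternatives.

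VSIR, the checkpoint molecule VISTA, was the member whose large arteries read low. It was 1.54, 1.85, 2.26 and 2.29 in small and 1.79, 2.10, 2.47, 2.23 and 2.12 in medium, against 1.03, 1.33 and 1.47 in large. All 3 large arteries were below all 9 others, the closest being small replicate 1. Against medium the difference was -0.75 ± 0.19 (SE, n = 3 and 5; 1.69-fold lower; unadjusted p 0.00196, limma adjusted p 0.764), and against small -0.64 ± 0.20 (SE, n = 3 and 4; limma adjusted p 0.148). Neither passed, here or under any alternative, and non-overlapping groups with the large arteries lower occurred for 2.93% of probes against medium and 8.52% against small. Medium and small differed by 0.12 ± 0.18 (SE; limma adjusted p 0.768).

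The measured area of plaque allowed a slope across all arteries. CD86 had a slope of 4.12 ± 0.77 log2 units per mm2 (SE, n = 12; limma adjusted p 0.0381) and HAVCR2 of 3.61 ± 0.73 (SE, n = 12; limma adjusted p 0.0469). These were 2 of 9 member probes, where 0.483% of all probes had a called positive slope and 0.1% a negative one. Within the 8 arteries with medium or large plaque the slopes were 0.64 for CD86 and 1.22 for HAVCR2, neither called (limma adjusted p 1 for both), so the slope over 12 arteries does not separate a gradient from a step. The CD86 call was lost under 12 of 27 alternatives and the HAVCR2 call under 16. With 1 animal left out, the CD86 call was lost without any single small artery, medium replicate 4 or 5, or large replicate 2 or 3 (adjusted p 0.0504 to 0.141). The HAVCR2 call was lost without any single small artery, medium replicate 2, 3 or 5, or large replicate 2 or 3 (adjusted p 0.0526 to 0.153). CD80 had a slope of 1.34 ± 0.40 (SE; limma adjusted p 0.125), and was called against the square root of area (limma adjusted p 0.0311), which made 3 members called. VSIR had a slope of -0.73 ± 0.29 (SE; limma adjusted p 0.241), steeper at -1.52 within the 8 arteries (limma adjusted p 0.74).

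**Figure D3:**
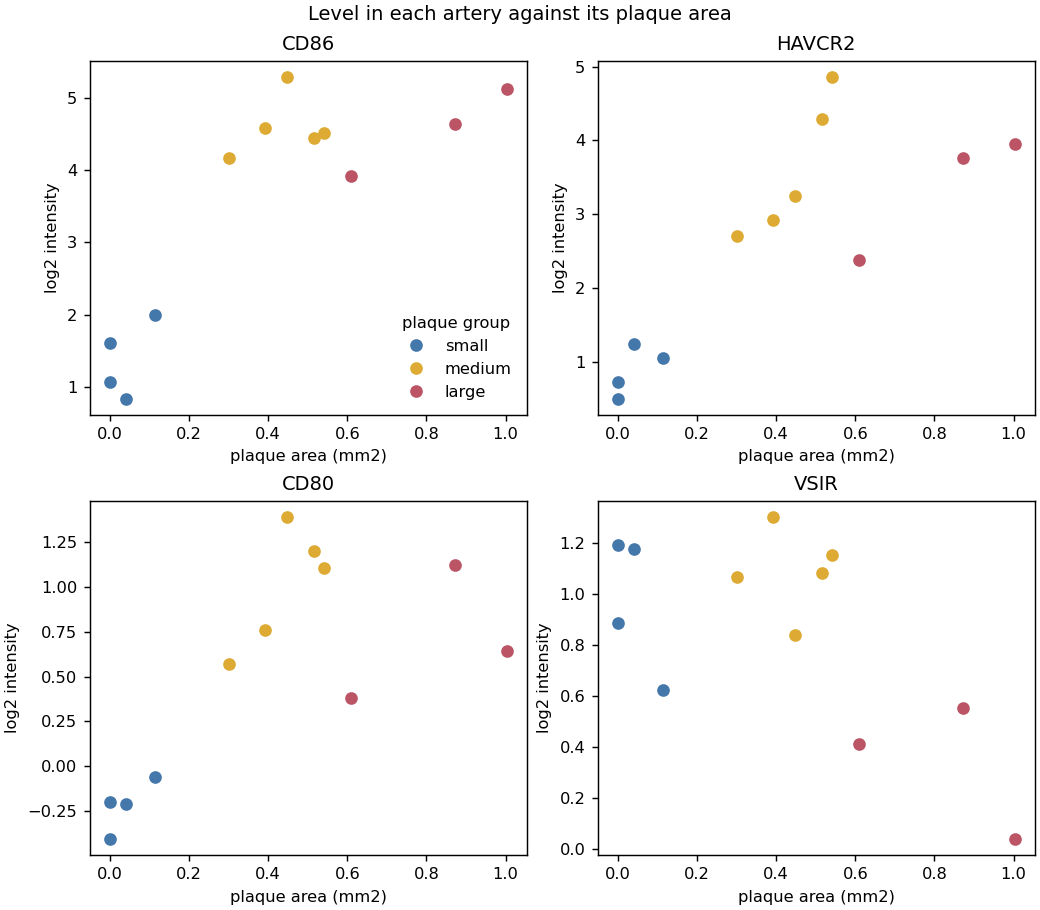
Log2 intensity (vertical axis) against plaque area in mm2 (horizontal axis) for CD86, HAVCR2, CD80 and VSIR, a point per artery, coloured by plaque group. CD86, HAVCR2 and CD80 are higher in all arteries from 0.30 mm2 up than in those of up to 0.113 mm2, with no artery between. No slope was called from 0.30 mm2 up, and a gradient and a step are not separated. VSIR is lowest at 1.003 mm2.

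Macrophage markers rose in the same comparisons as these genes. Of 8 measured macrophage markers 5 rose in medium and 4 in large, with median differences of 2.27 and 2.05. LAPTM5, TYROBP, CD163 and CD14 were called in both. LAPTM5, with 1 array at the floor, rose most, by 4.83 and 4.95. CSF1R was called in medium alone on the probe used, while its dimmer probe was called in large too (2.58, limma adjusted p 0.0249). Their summed intensity ranged from 61.2 to 112.3 in small, from 165.4 to 325.6 in medium and from 165.6 to 241.7 in large, and no marker was at the floor on all arrays of a group. CD68, a lysosomal protein used to stain macrophages, differed by -0.44 in medium and -0.66 in large and did not pass. CD83, a marker of mature dendritic cells, had 1 array at the floor. It rose by 3.51 ± 0.48 (SE; limma adjusted p 0.00276) in medium and 3.64 ± 0.55 (SE; limma adjusted p 0.00963) in large. CD83 was the 1 called of 9 dendritic cell markers, whose median differences were 0.21 and -0.052. The probes of CD1C, another of them, disagreed: the one used, the brighter, differed by -0.072 in medium, while the other rose by 1.98 (limma adjusted p 0.0299). The part of these cells in the rise of CD86, CD80 and HAVCR2 was not tested.

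Each artery's shift from the small group's mean was set beside the median shift of the macrophage markers, as a description. CD86 exceeded that median in every artery with medium or large plaque, by 0.63 to 1.47 in medium and 0.83 to 1.42 in large. In small the values ran from -0.79 to 0.55. CD80 shifted less than that median in all 8, with values from -1.46 to -0.61. Single markers differed from -0.44 (CD68) to 4.83 (LAPTM5) in medium and from -0.66 to 4.95 in large. CD86 was thus not above each marker, nor CD80 below each. HAVCR2 went either way, from -0.61 to 1.85 in medium and from -0.22 to 0.74 in large. A difference of this kind shows unequal change of probes and no amount per cell.

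**Figure D4:**
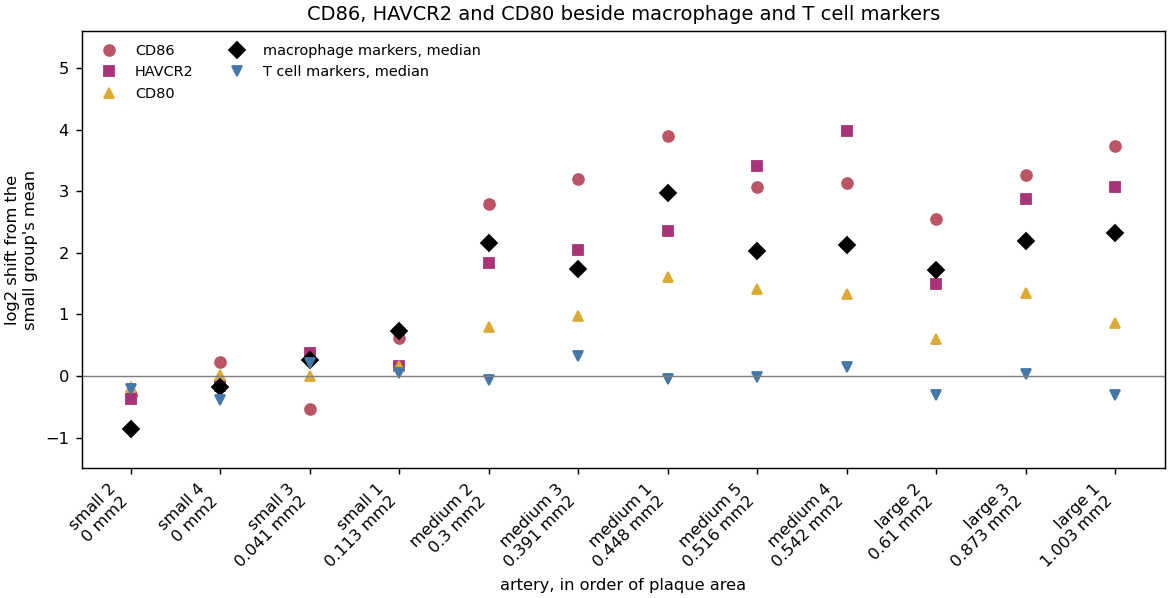
Log2 shift of each artery from the small group's mean (vertical axis) for CD86, HAVCR2 and CD80 and for the median of 8 macrophage and 9 T cell markers, with the 12 arteries in order of plaque area (horizontal axis). CD86 lies above the macrophage median and CD80 below it in all 8 arteries with medium or large plaque, while the T cell median stays near 0.

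T cell markers showed no call among 9 measured in either comparison, with median differences of 0.028 in medium and -0.094 in large. Their summed intensity overlapped between groups, at 23.0 to 38.3 in small, 35.1 to 48.4 in medium and 28.2 to 42.4 in large. CD3D, a chain of the T cell receptor complex, came closest, at 1.53 ± 0.40 (SE; limma adjusted p 0.0596) in medium, and CD4 was at the floor on 3 arrays. On the brightest probe of each gene, no marker was called among 5 of B cells, 6 of NK cells, 6 of endothelium, 6 of adventitial fibroblasts, 3 of mast cells, 4 of neutrophils and 2 of red blood cells. A dimmer probe of PECAM1, an endothelial marker, rose by 1.21 (limma adjusted p 0.0184) in medium and 1.25 (limma adjusted p 0.0486) in large, where the one used differed by -0.099 and -0.063. A dimmer probe of the fibroblast marker DPT fell by 1.35 (limma adjusted p 0.0253) in medium, where the one used differed by -1.17 and was not called. Of 4 adipocyte markers LPL, a lipase that macrophages also make, rose in both comparisons, and of 5 smooth muscle markers SMTN and MYLK fell in medium and MYLK in large.

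Around the members, 81 other genes of costimulation and checkpoint signalling were listed in 7 groups, of which 74 were measured on a complete probe. In medium 5 rose and none fell, which is 6.76% of the 74, where 3.6% of all genes on their brightest probe rose and 1.6% fell. In large 3 rose and none fell, or 4.05% against 1.91% and 0.254%. The median difference of the 74 was 0.063 in medium and -0.034 in large, beside -0.032 and -0.054 over all genes. Most of the pathway thus stayed uncalled, and the genes that rose are few. Without both animals of distant identity numbers, CD48 and PTPN6 alone of these 5 stayed called in medium, joined by ICAM2 (1.96, limma adjusted p 0.0355). ICAM2 had 2 arrays at the floor and was not called with all animals (1.41, limma adjusted p 0.11). The count was 3 without medium replicate 1 and 2 without small replicate 2. In large the count fell as low as 2, among others without both animals of distant identity numbers, where CD48 and PTPN6 stayed. It was 5 with a variance that depends on the level and 7 without small replicate 1, 6 of them higher and FOXP3 lower.

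CD48, an adhesion ligand on leukocytes that engages CD2 and CD244, was the 1 called of 8 adhesion costimulation genes. Its intensity was 2.04, 0.557, 0.731 and 0.915 in small, 5.21 to 9.06 in medium and 4.45 to 8.43 in large, with no overlap with small. CD48 rose by 2.93 ± 0.34 (SE; 7.64-fold; limma adjusted p 0.00105) in medium and by 2.77 ± 0.39 (SE; 6.84-fold; limma adjusted p 0.00642) in large. Its receptors were not called, with CD2 at 1.35 ± 0.38 (SE; limma adjusted p 0.0765) and CD244 at -0.37 ± 0.34 (SE; limma adjusted p 0.611) in medium.

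PTPN6, the phosphatase SHP-1 that acts behind inhibitory receptors of blood cells, was the 1 called of 17 signalling genes. It read 3.03, 1.31, 2.67 and 2.80 in small, 11.56 to 22.14 in medium and 9.58 to 15.19 in large. PTPN6 rose by 2.84 ± 0.28 (SE; 7.14-fold; limma adjusted p 0.00041) in medium and by 2.41 ± 0.32 (SE; 5.31-fold; limma adjusted p 0.00426) in large. PTPN11, the related phosphatase SHP-2 that PD-1 recruits, differed by -0.85 ± 0.29 (SE; limma adjusted p 0.136) in medium. T cell kinases and adaptors of the same list did not pass, among them LCK at 0.066, LAT at -0.46 and ZAP70 at 1.03 (limma adjusted p 0.0706) in medium. GRB2, an adaptor that binds CD28, was not called on its brightest probe (-0.25 in medium, limma adjusted p 0.472). Chosen after their values were seen, its 2 dimmer probes rose by 1.72 and 1.34, so its probes disagreed, as did those of PIK3R1, whose dimmer probe fell by 0.86 while the brighter one differed by -0.041.

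SIRPA, the myeloid receptor for the don't-eat-me ligand CD47, was the 1 called of 15 ligands and partners of checkpoint receptors. It rose by 1.47 ± 0.29 (SE; limma adjusted p 0.0199) in medium and 1.67 ± 0.33 (SE; limma adjusted p 0.0363) in large on the brightest of 3 probes. The next probe, of similar brightness, differed by 0.061 and 0.030, so the probes disagreed. The SIRPA call was lost under 5 of 25 alternatives in medium and 8 in large. Without both animals of distant identity numbers its adjusted p was 0.0807 in medium and 0.0945 in large. Without a single animal it was lost in medium for small replicate 2 or 4 and medium replicate 1 or 4 (adjusted p 0.05 to 0.0634), and in large for small replicate 2, 3 or 4, medium replicate 5 and large replicate 1 or 3 (adjusted p 0.0505 to 0.17). CD47 differed by 0.33 and 0.34, and LGALS9, a ligand of TIM-3, by 0.36 and 0.35 with 2 arrays at the floor, none past the threshold.

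Of 10 genes of TNF family costimulation 2 rose in medium and none in large. TNFSF8, the ligand of CD30, rose by 1.84 ± 0.35 (SE; limma adjusted p 0.0161) in medium and differed by 1.12 ± 0.40 (SE; limma adjusted p 0.195) in large. CD27, a receptor of T and B cells, rose by 1.66 ± 0.38 (SE; limma adjusted p 0.0352) in medium and differed by 1.83 ± 0.43 (SE; limma adjusted p 0.064) in large. The call of CD27 was lost under 9 of 24 alternatives, among them without both animals of distant identity numbers (adjusted p 0.12) and 7 omissions of a single animal, namely small replicate 2, 3 or 4, or medium replicate 1, 2, 3 or 5 (adjusted p 0.0544 to 0.0821). That of TNFSF8 was lost under 2 of 25, without both animals of distant identity numbers (1.74, adjusted p 0.0778) and without small replicate 2 (adjusted p 0.0515). CD40, the receptor through which T cells activate antigen-presenting cells, had 2 arrays at the floor and differed by 0.033 in medium and -0.29 in large.

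None of the 6 other B7 ligands was called, with median differences of 0.24 in medium and 0.055 in large. CD276 at 0.66 ± 0.22 (SE; limma adjusted p 0.128) had the smallest p of them in medium, and PDCD1LG2, the second PD-1 ligand, differed by 0.29 ± 0.34 (SE). The 9 other inhibitory receptors gave no call either, among them LAG3 at -0.044 ± 0.19 (SE) and TIGIT at -0.38 ± 0.36 (SE) in medium. Of 9 response genes of costimulated T cells none passed. IL2RA, a subunit of the interleukin 2 receptor with 1 array at the floor, differed by 1.69 ± 0.50 (SE; limma adjusted p 0.0978) in medium. IFNG at 0.12 and FOXP3, the factor of regulatory T cells, at -0.36 differed less.

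**Figure D5:**
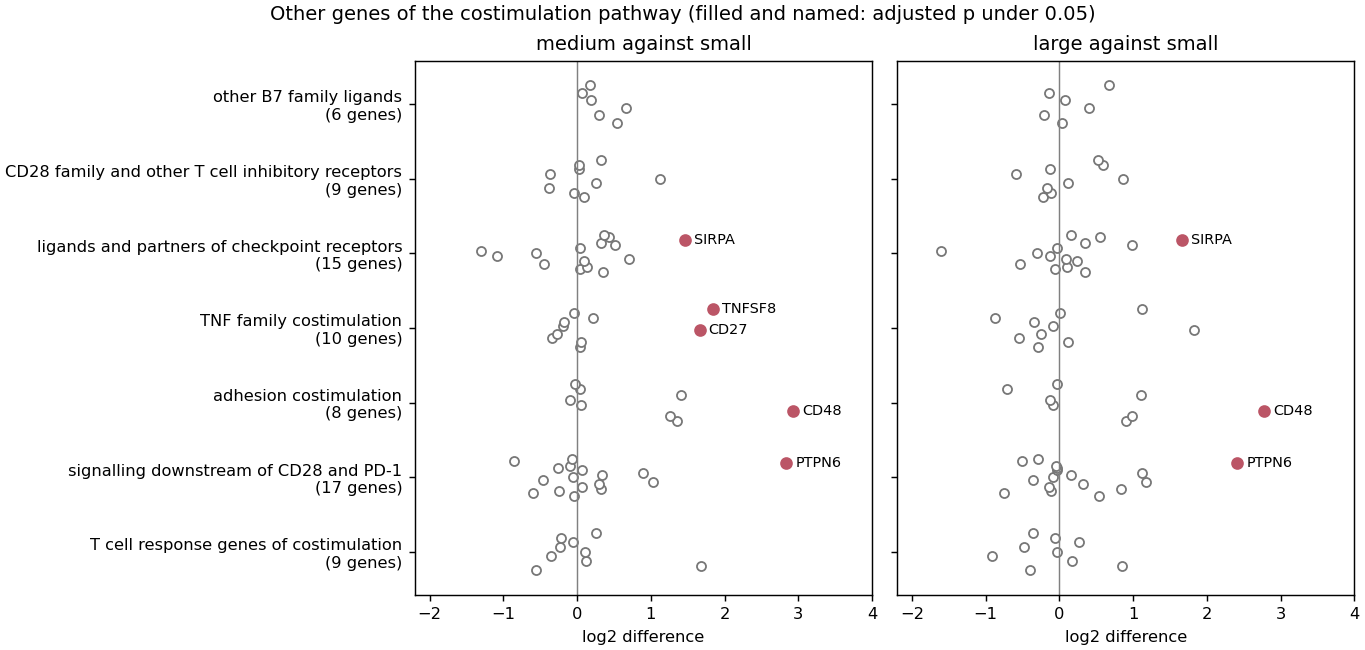
Log2 difference (horizontal axis) of each measured gene in the 7 lists of other costimulation and checkpoint genes, in medium against small (left) and large against small (right); filled, named points have an adjusted p under 0.05. CD48 and PTPN6 are filled in both panels at 2.41 to 2.93, and SIRPA is at 1.47 and 1.67. CD27 and TNFSF8 are filled on the left alone, and most of the 74 genes lie near 0.

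The members that rose are not neighbours in the genome. In the macaque annotation T2T-MFA8v1.1, CD28, CTLA4 and ICOS follow each other with no protein-coding gene between them, and none of the 3 was called. CD274 adjoins PDCD1LG2, and HAVCR2 adjoins HAVCR1, another TIM receptor. HAVCR1, with 1 array at the floor, differed by 0.44 ± 0.32 (SE; limma adjusted p 0.512) in medium, beside the rise of HAVCR2. CD80 and CD86 are not adjacent, with ADPRH and TIMMDC1 beside CD80 and CASR and ILDR1 beside CD86.

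The genes most like each member were sought among 21403 probes with 1 symbol, by Pearson r of log2 intensity over 12 arteries. All these values include the difference between small and larger plaque. The highest for CD86 were MLPH (r = 0.989), RGS7 (0.988) and FGGY (0.985), falling to 0.794, 0.827 and 0.698 within the 8 arteries with medium or large plaque. For CD80 they were TLR8 (0.967), a sensor of RNA in endosomes, NPC2 (0.965) and IRF8 (0.965), a transcription factor of myeloid cells, at 0.893, 0.842 and 0.857 within the 8. For HAVCR2 they were the protease gene MMP19 (0.979), HPCAL1 (0.976) and the lysosomal CTBS (0.973), at 0.940, 0.896 and 0.966. For VSIR they were NEO1 (0.920), TLN2 (0.914) and LINC01718 (0.912). Among the members themselves, r between CD86 and CD80 was 0.919 over 12 arteries and 0.569 over the 8, and between CD86 and HAVCR2 0.881 and 0.349. These are the highest of many values and are given as a description.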

How the data were processed

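The deposited table holds linear probe intensities of one-colour CodeLink arrays of human probes. The authors had scaled them to a median near 1 on each array. Background had probably been subtracted, since 3050 values lie below 0, but this is inferred and not stated. Which image software and formula were used is not given in the sources used here. Of 54359 probes, 53877 with 2 or more values in every group were tested. Before log2, a floor of 0.111 replaced lower intensities (5.45% of values); it is percentile 5 of the intensities above 0. limma 3.58.1 in R 4.3.3 fitted 3 group means over all 12 arrays, and the slope on plaque area separately, with eBayes and Benjamini-Hochberg adjustment over all probes. The scripts were tested on simulated data. Each animal is 1 replicate, and their number limits the precision.

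Gene names come from the platform annotation, which can be old. Every member probe is named. Other genes were represented by their brightest complete probe; those called against small, or else the 2 of smallest p per list, could be named, and a few more are named for their role. Members, lists and markers were chosen with earlier results of these data known. Alternatives covered normalization, floor, dim and incomplete probes, variance, weights, samples, the replicate block, the scale of area and each animal left out.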

Additional observations from a re-analysis of the deposited data

How the results depend on the processing

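Every call of CD86 against small plaque held under all alternatives, and large against medium gave no member call under any. The number of member probes called in medium against small, 3, fell to 1 without both animals of distant identity numbers and was 3 without any single animal. In large against small, 2 became 1 with quantile normalization, a floor at percentile 1, log2(value + 1) and without both those animals, and ranged from 1 to 2 with a single animal left out. For the slope, 2 became 1 with quantile normalization, robust variance and array weights, and 0 with a floor at percentile 1, without both those animals and within the medium and large arteries, with a range from 0 to 2 over single omissions. The replicate numbers name different animals. Deviations correlated between -0.159 and 0.216 in 10 same-numbered pairs of arteries, and between -0.203 and 0.228 in 37 others. Of the same-numbered pairs only small 4 with medium 4 was negative, while the others had both signs. Whether same-numbered arteries share a processing step was not tested. With the replicate number as a block, the calls were 3, 2 and 0 for medium, large and large against medium, and 0 for the slope.

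Signs turned for uncalled differences. With a floor at percentile 1, ICOS was 0.0093 in medium against small, -0.055 in large against small and -0.065 in large against medium, and CD274 was 0.16 and 0.11 in the latter comparisons with a slope of 0.15. With array weights, the dimmer CD28 probe was -0.084 in medium, ICOS -0.13 and CD274 0.15 in large against small, CD86 0.012 in large against medium, and the CD274 slope 0.031. With the replicate block, CD274 was -0.12 in medium and HAVCR2 0.14 in large against medium. Without both animals of distant identity numbers, CD274 was -0.18 in medium and 0.0031 in large against medium. Against the square root of area the slope was -0.13 for ICOS and 0.013 for CD274. Within the medium and large arteries it was -0.081 for CD80, -0.21 for the brighter CD28 probe, -0.33 for CTLA4, -0.38 for TNFSF8 and -0.17 for PTPN6.

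With single animals left out, CD274 ranged from -0.21 to 0.22 in medium and -0.41 to 0.080 in large against small, and -0.44 to 0.045 in large against medium. ICOS ranged from -0.24 to 0.48 in large against small, -0.0047 to 0.71 in large against medium and -0.41 to 0.52 in slope, and the brighter CD28 probe from -0.12 to 0.38 in large against small. In large against medium CD86 ranged from -0.32 to 0.28, HAVCR2 from -0.54 to 0.25, CD48 from -0.36 to 0.099 and CD27 from -0.051 to 0.38. Dim probes (ICOS, CD274, CTLA4, the dimmer CD28 probe and CD27) could not be given a value where dim probes were left out.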
